A study of Mus musculus with 8 samples.

Results

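Potassium channel subunits were examined in oviduct RNA from CD-1 mice treated as neonates with genistein (Gen), a soy isoflavone that binds estrogen receptors, and in RNA from control mice. The members were chosen by name, as every noncontrol probe of the array whose gene name in the files begins with Kcn followed by a letter. These were 84 of 27962 gene names and 123 of 41174 noncontrol probes, and 33 of the gene names had more than 1 probe. The names fell into 18 families by the letter after Kcn, from 23 Kcnj probes to 1 Kcnu probe. A name is not always a pore: the Kcni family consists of the Kcnip calcium sensors, the Kcna family includes the Kcnab beta subunits, the Kcnm family includes the Kcnmb beta subunits, and Kcnq1ot1 in the Kcnq family is a noncoding RNA. A further 6 probes that carry other names in the files are named Kcn in current tables and were not counted.

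Both groups were female CD-1 mice given subcutaneous injections daily on PND1–PND5. Control mice received corn oil, and Gen-treated mice received 50 mg/kg/day of Gen in that oil. Superovulation and mating followed in both groups at an age of 6–8 weeks, and oviducts without embryos were taken on GD2, 48 hr after hCG. Each group had 4 biological replicates that the methods call independent, and the RNA of each was hybridized to 1 Agilent 1-color (Cy3) array. How many mice each replicate held is not given for the arrays in the sources used here. Such RNA comes from every cell type of the organ, and fewer cells of a type cannot be told apart from less RNA per cell.

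Potassium channels let potassium leave the cell along its gradient and so set the resting potential of muscle and epithelium. A channel is built from pore-forming alpha subunits, either voltage-gated (among them Kcna, Kcnb, Kcnc, Kcnd, Kcnh and Kcnq), calcium- or sodium-activated (Kcnm, Kcnn and Kcnt), inwardly rectifying (Kcnj) or of the tandem pore kind that carries leak current (Kcnk). Silent alpha subunits (Kcnf, Kcng, Kcns and Kcnv) form no current of their own and modify Kcnb channels. Accessory subunits change gating and traffic, and the Kcne peptides, with a single membrane span, are the accessory subunits of Kcnq1 and other pores. In epithelia, basolateral Kcnq1 with Kcne3 returns potassium to the blood side while chloride is secreted at the other face, and in smooth muscle Kcnma1 with Kcnmb1 opposes contraction.

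The array sequences that report 2 genes of the Kcne family, Kcne1 and Kcne3, are shown first. Each probe has 60 bases, and its position is taken from the array design (mouse genome build mm7). The Kcne1 probe (chr16:92401009-92401068, minus strand) is given by its first 30 bases. One Kcne3 probe (chr7:96230672-96230731, plus strand) is given whole, with the stop codon that ends its open reading frame in capitals. The other Kcne3 probe (chr7:96230794-96230853, plus strand) lies 62 bases further on, past that stop, and is given by its first 30 bases. The Kcne3 probes do not overlap, so that their values are separate measurements of the same transcript.
Kcne1 probe A_51_P211671: acactctacaggtgacaagcggatctttct
Kcne3 probe A_52_P243425: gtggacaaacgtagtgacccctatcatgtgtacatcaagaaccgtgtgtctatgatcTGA
Kcne3 probe A_51_P336599: gaactcaactcaaccatatcaagccacagt

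All values below are processed signals of the scanner software, linear intensities scaled so that all arrays had an equal 75th percentile of log2 signal. Before scaling, that percentile was 1908–2432 for controls and 2149–3772 after Gen, and the array of Gen replicate 3 (3772) stood apart from the other 7. A group's signal is the mean of log2 values turned back to an intensity, and a change is Gen minus control on the log2 scale, with its SE, from limma over 4 arrays per group. Probes were called at an adjusted p (Benjamini-Hochberg over the 41173 probes tested) under 0.05. The control arrays shared slide 1 and the Gen arrays slide 2, each slide with its own scan date, so that treatment, slide and scan cannot be told apart in any value below. Each limma p sets the difference between the groups against the spread within them, and variation between slides is not part of that spread.

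The scanner software marks a probe as well above background on an array when its signal exceeds the local background by a set margin, and a probe so marked is called measured on that array here. Of the 123 Kcn probes, 58 (47.2%) were measured on all 8 arrays, compared with 60.6% of all noncontrol probes, and these 58 covered 47 gene names. Another 42 Kcn probes were measured on 1 to 7 arrays, and 23 (18.7%) on no array, compared with 19.1% of all probes. The share varied between families. All 5 Kcnm probes, 11 of 13 Kcnk probes and the Kcnu1 probe were measured on all 8 arrays. In the Kcnj family this held for 4 of 23 probes, in Kcnh for 3 of 11, in Kcnq for 2 of 8, in Kcns for 1 of 4 and in Kcnv for 0 of 3.

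Detection also differed between the arrays. The number of Kcn probes measured was 71, 79, 63 and 75 for controls and 93, 95, 87 and 77 after Gen. Every control array but replicate 2 was below every Gen array, and control replicate 2 (79) was above Gen replicate 4 (77). The means were 72 ± 6.83 (SD, n = 4) and 88 ± 8.08 (SD, n = 4), a difference of 16 probes (2-sided exact permutation test, p = 0.0571; the smallest p that 4 against 4 allows is 0.0286). Over all noncontrol probes the numbers were 25391–28949 for controls and 29539–31485 after Gen (2-sided exact permutation test, p = 0.0286), without overlap. Of the Kcn probes, 14 were measured on 0 control arrays and on at least 1 Gen array, among them Kcne2 and Kcnh5 (2 arrays each), and 0 showed the opposite. That count was not made over all probes, so nothing is read from it. Measured on more Gen than control arrays were 40 of the 123 Kcn probes and 7458 of all 41174 noncontrol probes, a higher share among the Kcn probes. Only a probe measured on 1 to 7 arrays can differ in this way. Those were 42 of the Kcn probes and 8370 of all probes, also a higher share among the Kcn probes. On fewer Gen than control arrays the numbers were 2 and 628, so the direction, though not the share, was common to all probes. The part of the slide in these counts cannot be told apart from that of treatment.

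**Figure D1:**
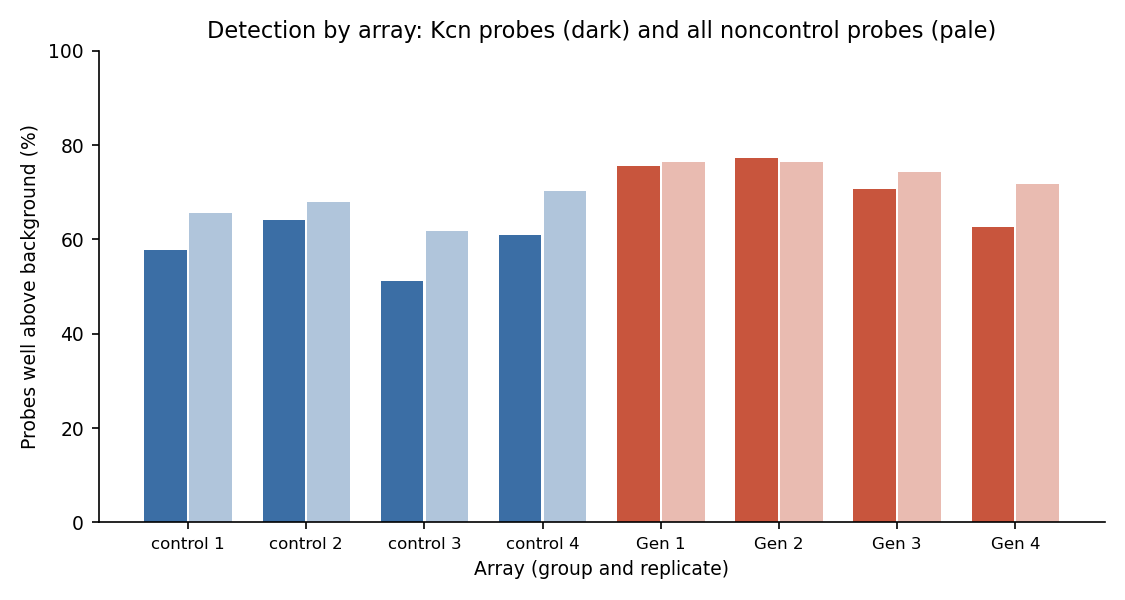
Share of probes well above background (%) on each of the 8 arrays, for the 123 Kcn probes (dark bars) and all noncontrol probes (pale bars); blue, control; red, Gen. The Kcn share was 51.2–64.2% for controls and 62.6–77.2% after Gen, and it was below the share of all probes on 7 of the 8 arrays, Gen replicate 2 being the exception.

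Over all probes, 21 of the 123 Kcn probes (17.1%) were called, 2 higher and 19 lower after Gen, compared with 16.2% of all 41173 probes (2.17% higher and 14.0% lower). The share among the members was close to that of all probes. Of the 23 Kcn probes measured on no array, 13 (56.5%) were called, each lower, compared with 63.6% of all such probes. The median change of these 23 probes was −1.17 on the log2 scale, and that of all such probes was −1.16. The called probes of this kind, among them those for Kcna6, Kcnc1, Kcnh7, Kcnj3, Kcnj6, Kcnj15, Kcnq5, Kcnv1 and the second Kcne1 probe, had no measured signal on any array, and no fold is given for them.

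Among the 58 Kcn probes measured on all 8 arrays, 5 (8.62%) were called, each with a lower signal after Gen, compared with 4.37% of all such probes (1.92% higher and 2.44% lower). Their median change was −0.10 on the log2 scale, compared with −0.01 over all such probes, with 26 positive and 32 negative. Without scaling between the arrays both medians were higher, at 0.14 and 0.24, with 34 positive and 24 negative. Groups did not overlap at 11 of the 58 probes (19.0%), 4 with all Gen arrays above and 7 with all Gen arrays below, compared with 12.5% of all such probes. Of the 42 probes measured on some arrays, 3 (7.14%) passed, 2 higher and 1 lower, compared with 7.04% of all such probes. With 1 probe per gene name, 17.3% of all names were called. When the test was limited to probes measured on all 4 arrays of a group, the background fell to 1.11% and 3 Kcn probes remained, those of Kcne1 and Kcne3 shown above.

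**Figure D2:**
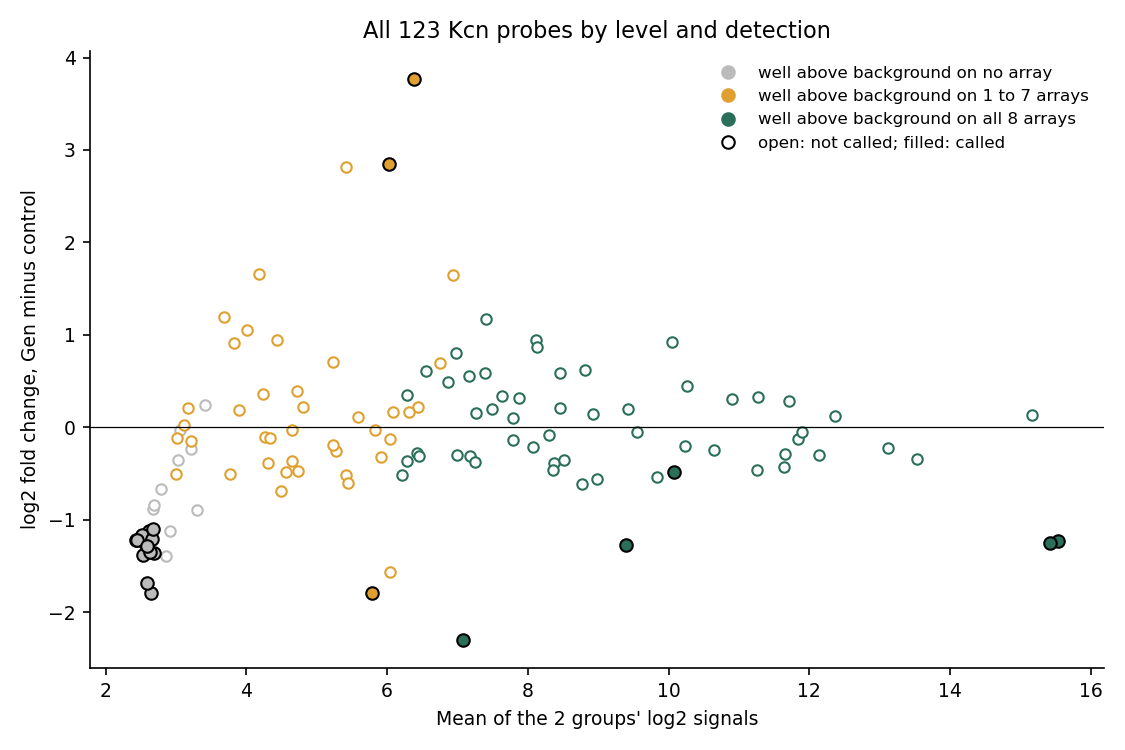
Change (log2, Gen minus control) of all 123 Kcn probes against the mean of both groups' log2 signals; color gives the number of arrays on which a probe was measured, and filled points were called. The 13 called probes in gray form a block at low signal near the median of −1.17, and the 5 called probes in green lie apart from it at higher signal.

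Kcne1 (also called MinK) is the accessory subunit that slows the opening of Kcnq1 and with it forms the slow potassium current of the heart and inner ear. It was the marker of this set and known from earlier results to differ, so its test is not independent evidence. Its signal at the first probe was 204, 533, 291 and 257 in control replicates and 72.6, 65.4, 61.4 and 47.4 after Gen. All 4 Gen replicates were below all 4 controls, and control replicate 2 was the highest. The mean signal was 300 for controls and 61.0 after Gen, a change of −2.30 ± 0.29 (4.92-fold lower, adjusted p = 0.0236). The second Kcne1 probe, 2420 bases away (chr16:92398529-92398588), was measured on no array, so that Kcne1 rests on 1 probe. Among the 58 measured Kcn probes this was the lowest change.

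Kcne3 (MiRP2) keeps Kcnq1 open in secretory epithelia, where the pair carries the potassium recycling described above. At the probe over its stop codon the signal was 68961, 72995, 63018 and 66654 in control replicates and 32904, 22493, 34691 and 25893 after Gen. At the probe past the stop it was 71962, 78607, 70108 and 69940 in control replicates and 35019, 25869, 37301 and 27308 after Gen. The control values lay within a narrow band (SD on the log2 scale, 0.09 and 0.08), and the Gen values, with SDs of 0.29 and 0.26, ranked the replicates in the same order at both probes. The change was −1.25 ± 0.16 (2.37-fold lower) and −1.23 ± 0.15 (2.34-fold lower), with adjusted p = 0.0236 for each, and no Gen replicate reached any control.

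The remaining Kcne genes were not called. Kcne1l (now Kcne5), which dampens Kcnq1, had signals of 336, 296, 249 and 268 in controls and 361, 415, 384 and 592 after Gen. All Gen values were above all control values, a change of 0.59 ± 0.18 (adjusted p = 0.067). Kcne4, which inhibits Kcnq1, had a mean signal of 2861 in controls and 2084 after Gen (change −0.46 ± 0.21, adjusted p = 0.198), with overlap. Kcne2 was measured on 0 control and 2 Gen arrays. The partner pore Kcnq1 had signals of 8157, 13048, 8406 and 9468 in controls and 8352, 7353, 8190 and 9278 after Gen at its plus-strand probe (chr7:139854115-139854174), which overlapped (change −0.22 ± 0.17, adjusted p = 0.467). Its other probe lies on the opposite strand of the chromosome, with mean signals of 64.6 and 72.1. In the Kcne family, 3 of 5 probes measured on all 8 arrays were thus called, beside 4.37% of all such probes. Of the 3, 2 are in the same gene and 1 is that of Kcne1, chosen as known to differ, so nothing is read from this count.

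**Figure D3:**
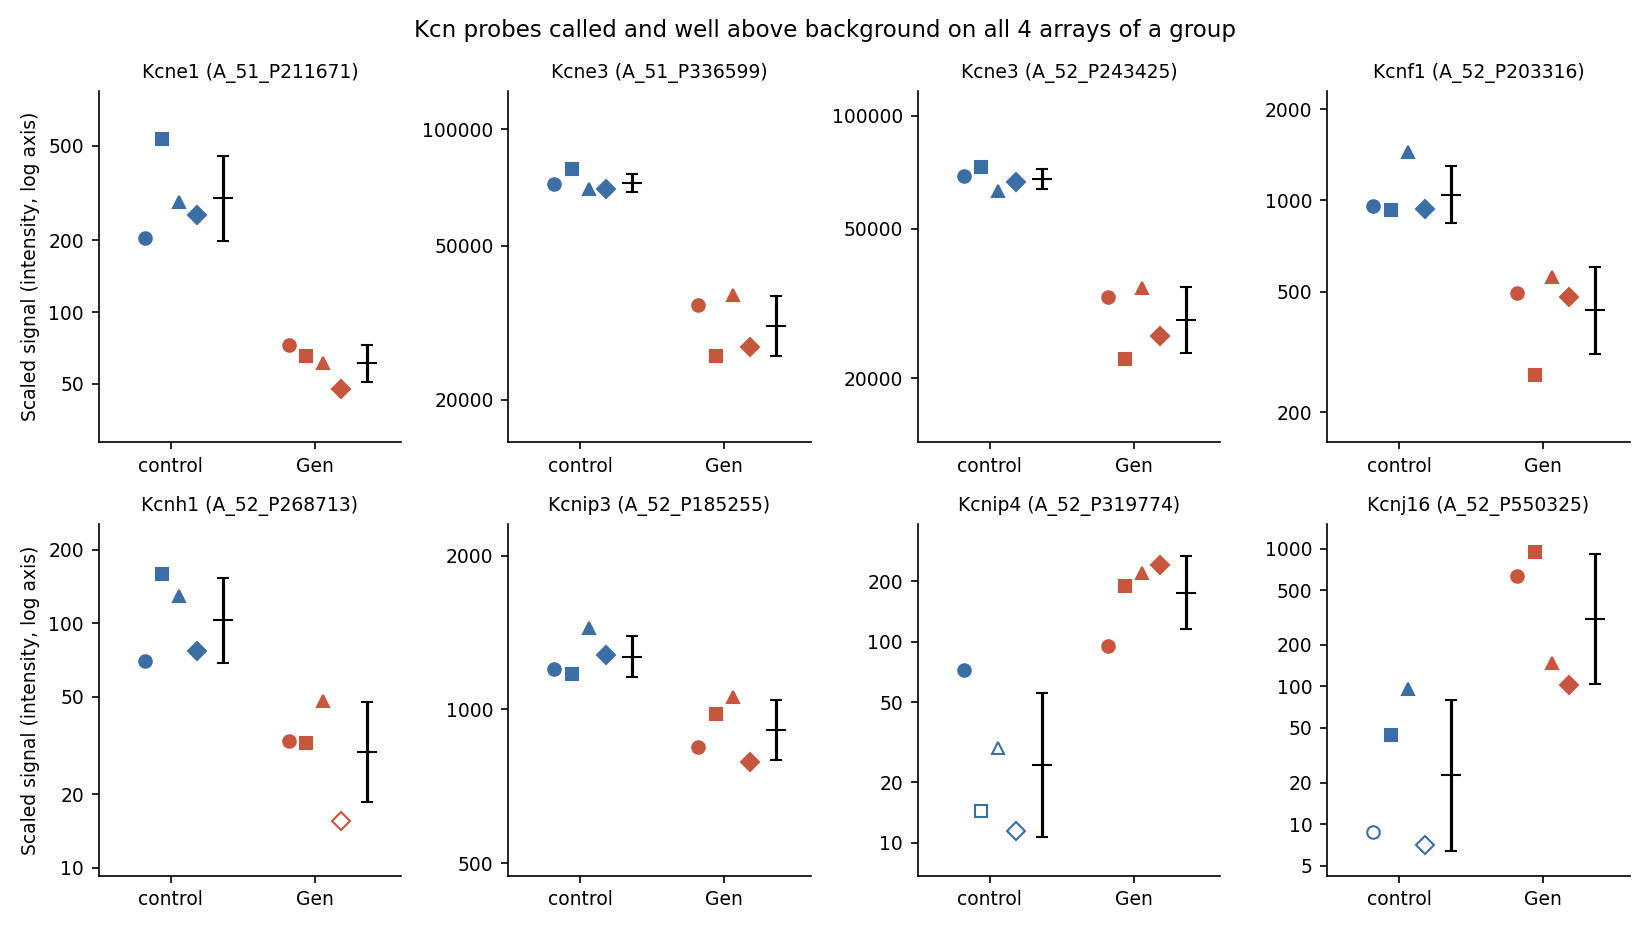
Scaled signal (intensity, log axis, a scale for each panel) on each array at the 8 Kcn probes that were called and measured on all 4 arrays of a group; blue, control; red, Gen; the marker shape gives the replicate number, open symbols were not measured, and black bars give the mean and SD of the 4 log2 values. Groups do not overlap in any panel, with Gen below control at 6 probes and above control at Kcnip4 and Kcnj16. The probes were chosen as called in these data, so this separation is no further support for them. Kcnip4 and Kcnj16 were measured on all 4 arrays of the Gen group only, and Kcnh1 on all 4 of the control group only.

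Kcnf1 (Kv5.1) is a silent alpha subunit. Its called probe (chr12:17227061-17227120, minus strand) had signals of 956, 931, 1440 and 934 in control replicates and 497, 266, 560 and 479 after Gen. Control replicate 3 was high and Gen replicate 2 low, and the groups did not overlap. The change was −1.27 ± 0.26 (2.41-fold lower, adjusted p = 0.0236). The call did not hold when only measured probes were tested, nor after normexp correction (adjusted p = 0.0541) or quantile normalization (adjusted p = 0.0859).

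The other probe listed under Kcnf1 had signals of 14.2–35.8 in controls and 16.8–36.6 after Gen and was measured on 1 control and 3 Gen arrays (change −0.03 ± 0.35, adjusted p = 0.969). Its position (chr12:17231326-17231385) is on the plus strand, opposite to the called probe. Its sequence was searched in the RefSeq window before the start of Kcnf1, and the reverse complement lies there in full, ending 97 bases before the start of the gene. The 250 bases upstream of Kcnf1 (RefSeq, GRCm38.p6, chr12:17176889-17177138, minus strand) are shown in the direction of the gene, with the stretch opposite to the probe in capitals.
Kcnf1 upstream: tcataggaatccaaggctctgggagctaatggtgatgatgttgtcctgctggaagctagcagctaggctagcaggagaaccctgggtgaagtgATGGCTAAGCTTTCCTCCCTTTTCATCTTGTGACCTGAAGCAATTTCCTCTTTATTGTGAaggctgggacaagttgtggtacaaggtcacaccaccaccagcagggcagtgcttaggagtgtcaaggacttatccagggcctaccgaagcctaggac
That probe therefore reads the strand opposite to Kcnf1, upstream of it, and its value is not one of the Kcnf1 transcript. It was the sole Kcn probe found in the window of its own gene, among 62 Kcn gene names with such a window. Probes on both strands were also listed for Kcnq1 and Kcnj3.

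Kcnh1 (Eag1) is a voltage-gated pore best known from brain. Its called probe had signals of 70.2, 159, 129 and 77.1 in control replicates and 32.9, 32.3, 47.9 and 15.5 after Gen, where replicate 4 was not measured. The change was −1.79 ± 0.39 (3.45-fold lower, adjusted p = 0.0237), with no overlap. After normexp correction it was −0.98 (adjusted p = 0.0567). At the second Kcnh1 probe, 2788 bases away, the signals were 89.1, 66.9, 260 and 107 in controls and 141, 34.6, 53.0 and 8.31 after Gen. These overlapped, since Gen replicate 1 (141) exceeded 3 of the 4 controls, and the change was −1.57 ± 0.82 (adjusted p = 0.262).

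The Kcnip genes encode calcium sensors (KChIPs) that bind Kcnd pores and raise their surface level, and Kcnip3 is also known as the repressor DREAM. At the called Kcnip3 probe the signal was 1202, 1171, 1442 and 1276 in controls and 845, 980, 1060 and 788 after Gen, a change of −0.48 ± 0.14 (1.39-fold lower, adjusted p = 0.0494). The second Kcnip3 probe gave 488, 664, 713 and 621 in controls and 455, 468, 430 and 329 after Gen (change −0.56 ± 0.17, adjusted p = 0.0594). Groups did not overlap at either probe, and the call at the first lay at the threshold and was lost in each of the 8 fits that left out 1 array (adjusted p, 0.0606–0.126). Without scaling between the arrays the change at the first was −0.24 (adjusted p = 0.695).

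Kcnip4 was called in the opposite direction. Its called probe had signals of 72.0, 14.4, 29.6 and 11.4 in controls, with only replicate 1 measured, and of 95.7, 189, 219 and 241 after Gen, all measured. The change was 2.85 ± 0.58 (7.23-fold higher, adjusted p = 0.0236), and with 3 of 4 controls at background its size is uncertain: it was 1.26 after another background correction (normexp) and 3.09 without scaling between the arrays. Of 10 alternatives with all 8 arrays, the call held in 5, among them these, and was lost in 5. It was lost after quantile normalization (adjusted p = 0.103) and when only measured probes were tested (adjusted p = 0.0586). The second Kcnip4 probe was measured on no array, so that the gene rests on 1 probe. The Kcnip genes are similar in sequence, and the probe of Kcnip3 (chr2:127199214-127200214, across a splice junction) and that second probe of Kcnip4 (chr5:47716800-47721907, also across a junction), both on the minus strand, are shown with equal bases in capitals.
Kcnip3 probe A_52_P185255: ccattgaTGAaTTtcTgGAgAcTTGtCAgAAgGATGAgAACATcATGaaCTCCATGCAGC
Kcnip4 probe A_51_P396978: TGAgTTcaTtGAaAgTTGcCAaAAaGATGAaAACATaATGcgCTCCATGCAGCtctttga
Over the 53 bases in which they align, 40 (75.5%) were equal. With signals of 788–1442 at the Kcnip3 probe on all 8 arrays, the Kcnip4 probe of this pair stayed at mean signals of 9.82 and 11.6. The called Kcnip4 probe was not aligned with any other, so nothing about its signal is read from this pair. Kcnip1 (536 and 351, change −0.61 ± 0.39, adjusted p = 0.364) and Kcnip2 (177 and 225, change 0.34 ± 0.20, adjusted p = 0.312) were not called.

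Kcnj16 (Kir5.1) is an inward rectifier subunit that pairs with Kcnj10 in kidney and glia. Its called probe had signals of 8.81, 44.3, 95.5 and 7.06 in controls and 636, 942, 148 and 102 after Gen. Control replicates 1 and 4 were not measured, and Gen replicates 1 and 2 were far above replicates 3 and 4. The change was 3.77 ± 1.04 (13.6-fold higher, adjusted p = 0.0429). With 2 of 4 controls at background its size is uncertain: it was 1.83 after normexp correction (adjusted p = 0.171) and 2.95 with signals raised to a floor (adjusted p = 0.22). The other 2 Kcnj16 probes, 344 and 1007 bases away, were measured on 0 control arrays and on 1 and 2 Gen arrays, and their changes were −0.15 ± 0.67 and 1.19 ± 0.86 (adjusted p, 0.908 and 0.418). Kcnj10 itself had signals of 92.6, 160, 147 and 163 in controls and 182, 219, 230 and 200 after Gen, without overlap (change 0.59 ± 0.20, adjusted p = 0.088).

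Some markers of another tissue followed a similar course over the arrays. Of 7 markers of ovarian steroidogenic cells, 4 were higher after Gen (Cyp11a1, Hsd3b1, Lhcgr and Inha), and none (0) was lower. Over all probes, 2.17% were called higher and 14% lower. The summed signal of the list was 4163–29420 for controls and 32632–141384 after Gen. Cyp11a1, which makes pregnenolone, had signals of 238, 354, 3903 and 271 in controls and 23785, 21029, 4444 and 8710 after Gen, highest on the arrays of Gen replicates 1 and 2 and, among controls, on replicate 3, as was the case for Kcnj16. Lhcgr, the luteinizing hormone receptor, was measured on 0 control and all 4 Gen arrays. The course was not common to the whole list: Cyp17a1 was not called (signals of 727–1770 in controls and 913–1436 after Gen, change −0.02 ± 0.28) and was highest in control replicate 2, and Fshr was highest in control replicate 4 (221), with overlap. Other Kcn probes that were not called also had their highest signals in Gen replicates 1 and 2. Among them were those of Kcnab2, Kcnab3, Kcnd2, Kcnk3 and Kcnt2 and only 1 of the Kcnt1 probes (A_52_P78699). Markers of other cells had this order too, such as Ms4a1 and Cd79b (lymphocytes) and Uchl1 (neurons), while Cd3e and Stmn2 of the same lists did not. How many of all probes had it was not counted. Kcnab3, a beta subunit of Kcna pores, had signals of 137, 97.2, 146 and 83.2 in controls and 341, 694, 166 and 105 after Gen (change 1.17 ± 0.55, adjusted p = 0.209). Kcnk3 (TASK-1), a leak channel of steroid-producing and other cells, had signals of 410, 911, 1104 and 858 in controls and 1920, 2213, 1103 and 975 after Gen (change 0.92 ± 0.38, adjusted p = 0.156). Kcnip4 did not share this course, with its lowest Gen value in replicate 1. The part of ovarian cells in these values was not tested.

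**Figure D4:**
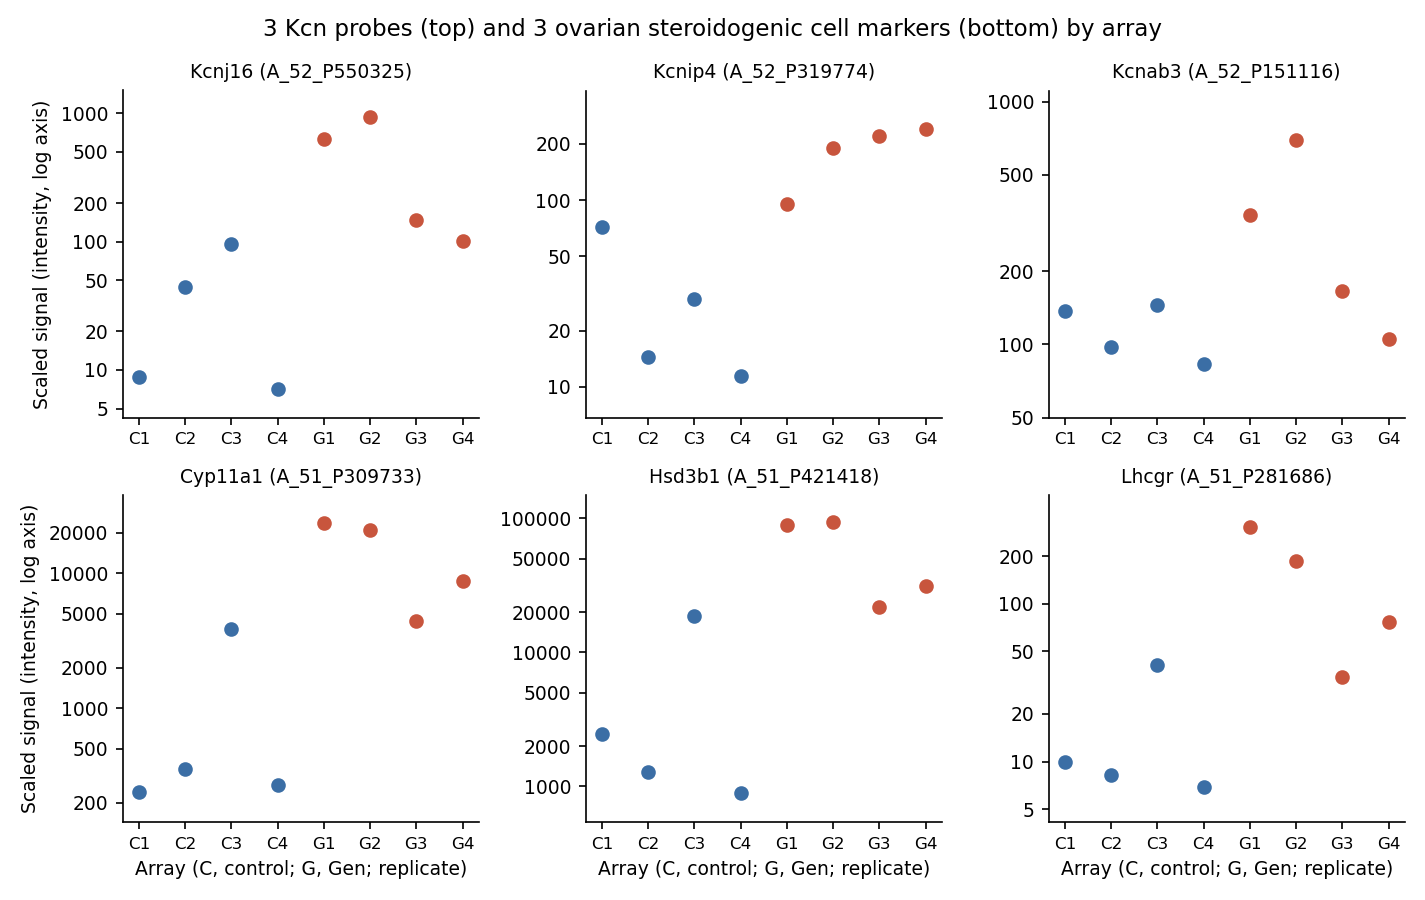
Scaled signal (intensity, log axis, a scale for each panel) on each array, control (C1 to C4, blue) and Gen (G1 to G4, red), for the probes of Kcnj16, Kcnip4 and Kcnab3 (top) and for 3 of the 4 called markers of ovarian steroidogenic cells (bottom). Kcnj16, Kcnab3 and the 3 markers were highest in Gen replicates 1 and 2, and Kcnip4 was not.

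The lists for cells expected in the organ were well represented. All 6 markers of secretory epithelium, all 8 of ciliated epithelium and all 10 of smooth muscle were measured on all 8 arrays, and 0 of each list were called in either direction. Their median changes were −0.08, −0.03 and −0.26 on the log2 scale. Of 9 markers of cardiac muscle, 2 were lower (Tnnt2 and Myh6). Of 6 macrophage markers 2 were higher (Emr1 and Itgam), and 1 lymphocyte marker of 8 (Ptprc) was higher. None (0) of the 9 neuronal, 6 endothelial, 4 pericyte and 3 pacemaker cell markers was called. Their part in the Kcn values was not tested.

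Families without a called, measured probe are described by their measured probe with the smallest p, and none of those given passed. Among voltage-gated pores, Kcnd2 (Kv4.2, the partner of the Kcnip proteins) had signals of 243, 168, 235 and 169 in controls and 364, 707, 288 and 296 after Gen, without overlap (change 0.94 ± 0.30, adjusted p = 0.0757). Kcnc4 had mean signals of 98.1 and 138 (change 0.49 ± 0.24, adjusted p = 0.227). Among the Kcna pores and beta subunits, all 5 measured probes had positive changes, from 0.14 to 1.17, and 0 were called. The signs were the same under the other 4 scalings and background corrections, which use the same arrays. Of all probes measured on all 8 arrays, 12252 had positive and 12695 negative changes. Kcna2, measured on 3 control and 4 Gen arrays, had a change of −0.32 ± 0.24, and nothing is read from the sign count. Kcna5, a voltage-gated pore of heart and vessels measured on 1 control and 3 Gen arrays, had signals of 101, 7.35, 14.2 and 6.19 in controls and 12.2, 223, 178 and 335 after Gen, which overlapped through control replicate 1 and Gen replicate 1 (change 2.82 ± 1.23, adjusted p = 0.179). Of the silent subunits Kcng4 was at 173 and 133 (change −0.38 ± 0.20, adjusted p = 0.261) and Kcns3 at 323 and 307 (change −0.08 ± 0.20, adjusted p = 0.839), while no Kcnv probe was measured on all 8 arrays.

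Among calcium- and sodium-activated channels, 0 of the 5 Kcnm probes, which report the large conductance channel, were called. Kcnma1, its pore, had signals of 134, 171, 134 and 132 in controls and 111, 147, 90.8 and 118 after Gen (change −0.30 ± 0.17, adjusted p = 0.298). Kcnmb1, its smooth muscle beta subunit, had changes of 0.55 ± 0.23 and −0.20 ± 0.18 at its 2 probes (adjusted p, 0.164 and 0.533), which differed in sign. Kcnmb4 was at 5077 and 5516 (change 0.12 ± 0.21). Kcnn1, a small conductance channel, was at 416 and 324 (change −0.36 ± 0.21, adjusted p = 0.31), and Kcnn4, the intermediate conductance channel of secretory epithelia, at 5025 and 4081 (change −0.30 ± 0.27, adjusted p = 0.515). Kcnt2, a sodium-activated pore, was at 76.1 and 116 (change 0.61 ± 0.22, adjusted p = 0.114). All 3 measured Kcnt probes had positive changes, of which 1 turned negative after normexp correction (lowest change, −0.07), and nothing is read from this sign count. Kcnu1, the sperm channel Slo3, was at 215 and 230 (change 0.10 ± 0.13).

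Of the 11 measured Kcnk leak channel probes 0 were called, with 4 positive and 7 negative changes (6 and 5 without scaling between the arrays). Kcnk13 had signals of 1527, 987, 934 and 1047 in controls and 833, 700, 641 and 872 after Gen, which did not overlap (change −0.54 ± 0.19, adjusted p = 0.0954). Kcnk16, measured on 2 control and 4 Gen arrays, had signals of 125, 101, 65.6 and 26.9 in controls and 132, 282, 199 and 297 after Gen (change 1.65 ± 0.49, adjusted p = 0.0577), also without overlap. Of the inward rectifiers, Kcnj8 (Kir6.1, the pore of vascular and smooth muscle ATP-sensitive channels) was at 35104 and 38537 at 1 probe and at 3059 and 3702 at the other (changes 0.13 ± 0.16 and 0.28 ± 0.19). The noncoding Kcnq1ot1, transcribed antisense to Kcnq1, was at 1042 and 1428 (change 0.45 ± 0.31, adjusted p = 0.385).

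**Figure D5:**
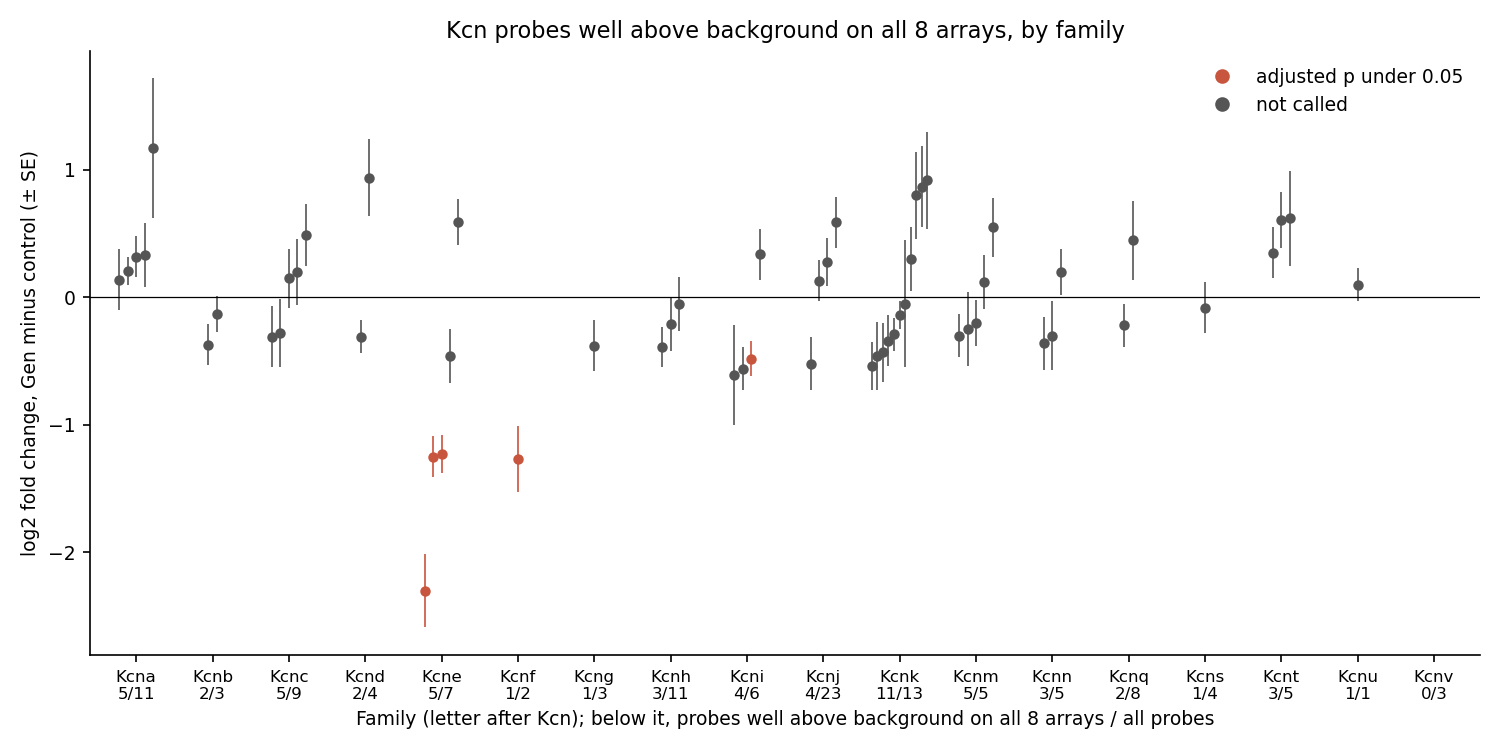
Change (log2, Gen minus control, ± SE, 4 arrays per group) of the 58 Kcn probes measured on all 8 arrays, by family; under each family stand the probes measured on all 8 arrays and all its probes. The 5 called probes (red), for Kcne1, Kcne3 (2 probes), Kcnf1 and Kcnip3, are all below 0, and the other 53 lie between −0.61 and 1.17.

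Genes of potassium handling without a Kcn name were taken from a list of 39, of which 38 had a probe. With 1 probe per gene, 6 were called, 1 higher and 5 lower, and 17.3% of all gene names were called with 1 probe per name. The share of the list was no higher than that. Of these 6, 3 (Lrrc52, Atp1b4 and Slc12a3) were measured on no array. Among the 14 channel partners, Abcc8 (Sur1, the regulatory subunit of ATP-sensitive channels) had signals of 206, 245, 267 and 236 in controls and 337, 384, 306 and 336 after Gen (change 0.52 ± 0.13, adjusted p = 0.0278). The smooth muscle form Abcc9 was not called (change 0.14 ± 0.21). Lrrc26, a gamma subunit of the large conductance channel in secretory epithelia, was at 11558–18148 in controls and 10827–17636 after Gen (change 0.05 ± 0.20).

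Among the 17 pump genes with a probe, Fxyd4 and Atp1b1 were lower. Fxyd4 (CHIF), which modulates the sodium potassium pump, had signals of 275054, 362840, 342258 and 282843 in controls and 191196, 148910, 195662 and 166241 after Gen (change −0.85 ± 0.15, adjusted p = 0.0236). Atp1b1, the beta subunit of the pump, had signals of 13950, 17236, 17607 and 14114 in controls and 9005, 9545, 12500 and 8049 after Gen (change −0.70 ± 0.17, adjusted p = 0.0255). Groups did not overlap at either gene. Of the 7 cation chloride cotransporters, 0 measured genes were called, and Slc12a2 (Nkcc1), the basolateral importer of secretory epithelia, was at 4364–5315 in controls and 5291–6504 after Gen (change 0.30 ± 0.12, adjusted p = 0.142). The calls of Abcc8 and Atp1b1 did not hold when only measured probes were tested, and that of Fxyd4 did.

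The calls of Kcne1 and of both Kcne3 probes held after quantile normalization, after normexp correction and when only measured probes were tested. Both Kcne3 calls were lost without scaling between arrays (changes of −1.01 and −0.99, adjusted p = 0.0678 and 0.0681 at the probe over the stop codon and the probe past it) and without control replicate 1 (adjusted p = 0.0591 and 0.0563). The calls of Kcne1 and Kcne3 were lost, as were all other Kcn calls, when the array of Gen replicate 1, 2 or 3 was left out (adjusted p of Kcne1, 0.0633, 0.0675 and 0.0603). In those 3 fits 3, 2 and 1 of all 41173 probes were called in place of 6674, while the change of Kcne1 was −2.38, −2.33 and −2.30.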

How the data were processed

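The authors deposited, per array, the output of Agilent Feature Extraction (version 9.5 in the submitters' processing notes), whose processed signals are linear intensities corrected for background and spatial trend and not scaled between arrays. Control spots (1639 of 45018) and outlier spots were left out, log2 signals of a probe were averaged, and arrays were scaled to the mean of their 75th percentiles (2357). Groups came from the sample titles. limma 3.58.1 (R 4.3.3; lmFit, eBayes) was fitted to 41173 probes with Benjamini-Hochberg adjustment, and was tested on simulated data, in which 70% of 4-fold and 25% of 2-fold changes were recovered. A probe of several spots counted as measured when most of them were well above background. The text names every called Kcn probe measured on all 4 arrays of a group with the other probes of its gene, the measured probe of smallest p in other families, and listed transport genes called by the same rule. Other genes were named after their values were seen: Kcnq1, its accessory subunits, Kcnj10, Kcnk3, Kcnk16 and other members given as context. The members and lists were chosen with earlier results of these data known. Plots used matplotlib 3.10.9. Precision is limited by 4 arrays per group. Alternatives were other scalings, normexp (offset 50), filters, a floor, outlier spots kept, the methods' t-test, a robust fit with an intensity trend, the replicate block, other detection flags, the mean of a gene's probes, and each array left out. No mm7 genome was used, so exons are not given. Results for some genes are not reported here.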

Additional observations from a re-analysis of the deposited data

Results flagged for a closer look

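In 3 groups of 4 arrays, 1 array lay far from the other 3 at a named probe, with a gap to its neighbor, divided by the range of the log2 signals, above Dixon's critical value. These were Kcnf1 in control replicate 3 (signal 1440, ratio 0.939), Kcnn1 in control replicate 1 (signal 276, ratio 0.934) and Kcnu1 in control replicate 1 (signal 178, ratio 0.854). Chance alone gives about 1 such group in 20, which comes to 3 of the 60 groups examined.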

How the results depend on the processing

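Called probes measured on no array were not followed one by one through the alternatives. None of the other called values, those of the called Kcn probes named above and of Abcc8, Atp1b1 and Fxyd4, changed its direction under any alternative that fitted single probes. With the mean of a gene's probes only the transport count was kept. There 7 genes were called, 0 higher and 7 lower, so Abcc8 was not called higher. Some values that were not called did, among them the changes of Kcns3 (−0.08, and 0.16 without scaling between arrays) and Kcnu1 (0.10, and −0.08 after normexp correction). Against 21 Kcn calls, 5 of them at probes measured on all 8 arrays, and 6 calls of other potassium transport genes, the 3 counts were 3, 3 and 0 after quantile normalization, 4, 1 and 1 without scaling between arrays, 4, 3 and 0 after normexp correction, and 3, 3 and 1 with either filter on dim probes. The transport count of 0 stood beside 10 genes at an unadjusted p under 0.05 in limma after quantile normalization and 10 after normexp. With signals raised to a floor of 24.4 all 3 counts were 0 in limma, beside 21, 17 and 8 at an unadjusted p under 0.05. With the methods' t-test they were 0, beside 36, 16 and 11. With the replicate number as a block in limma they were 0, beside 35, 12 and 10, and the change of Kcne1 was −2.30 with an adjusted p of 0.0791. The floor and the methods' t-test left that change at −2.30, with adjusted p of 0.0699 and 0.063 from fits across all probes. Over all 11 alternatives with 8 arrays it was −2.40 to −1.55 (adjusted p, 0.00783–0.0791). The cause of these shifts was not tested. Without scaling, the median change of all probes moved from −0.06 to 0.18.

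Leaving out 1 array at a time, the counts were 0–21, 0–4 and 0–4, and the change of Kcne1 was −2.49 to −2.02 (adjusted p, 0.0148–0.0675). All 3 counts were 0 without Gen replicate 1, 2 or 3 (Kcn probes at an unadjusted p under 0.05 in limma, 39, 38 and 35). Without control replicate 1 they were 2, 1 and 0, and without Gen replicate 4 the transport count was 3. The difference in measured Kcn probes between the groups was 13–19.67 over these fits, and it was 13 with the flag for positive and significant signal (exact permutation test, p = 0.0286). It passed without Gen replicate 4 as well. The replicate numbers gave no sign of pairing: deviations of same-numbered arrays correlated at −0.08, 0.11, −0.02 and −0.18, and 0 of 4 matched best with their own number. The paper compared Gen-treated mice with control littermates. Which arrays shared a litter is not given in the sources used here, so pairing by litter was not tested. Probes near background and the shared slide of each group limit what can be read from the counts.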
